A study of Sus scrofa with 23 samples.

Results

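Cytosolic ribosomal protein genes are the genes for the proteins of the ribosome that works in the cytoplasm. They were taken here by symbol: every gene whose probe set (the group of short probes that together measure a transcript) was annotated to a single gene with a name that begins RPL or RPS and a digit, RPLP, or RPSA, without the RPS6K kinases. The rule gave 64 genes of 6765 named on the array, and where a gene had several probe sets the one with the highest mean stood for it. Of the 64, 31 encode proteins of the large subunit, 24 of the small subunit and 3 of the ribosomal stalk. A last group of 6 holds genes that the naming rule also catches, namely the paralogues RPL22L1, RPL26L1, RPL36AL, RPL7L1 and RPS27L, and RPS19BP1, which encodes a binding partner of RPS19.

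The cells were bone marrow-derived macrophages of 3 Large White x Landrace F1 pigs, grown from marrow with recombinant human CSF1, the macrophage growth factor. All cultures came from this protocol, and the stimulated ones received lipopolysaccharide (LPS, a component of the bacterial outer membrane) from the minnesota serotype of Salmonella enterica at 100 ng/ml for 2, 7 or 24 h. The 0 h cultures were unstimulated. Pigs 1 and 3 were male and pig 2 was female per the labels; the age of the animals is not given in the sources used here. Total RNA of 2 cultures per pig and time, and of 1 culture for pig 3 at 24 h, was hybridized to 23 Affymetrix porcine arrays. The question the design poses is how transcript levels move over the hours of LPS exposure.

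The times used below are not those of the sample titles. Neighbouring columns of the deposited table were treated as duplicate cultures of one pig, with columns 1 to 6 as 0 h, 7 to 12 as 2 h, 13 to 18 as 7 h and 19 to 23 as 24 h. This order was inferred from the arrays and is not stated in the labels. Under it, the array most like each of the 22 arrays with a duplicate was that duplicate in 22 cases, against 0 cases with the duplicates that the titles name. The Y-linked gene EIF1AY had the level of the labelled sex on 23 of 23 arrays under the column order and on 15 under the titles. The count of nearest arrays comes from the same arrays as the inferred order, so it is not independent support for that order. Both checks bear on which arrays belong together and on the sex of the pig. They do not fix the order of the 4 times or tell pigs 1 and 3 apart. Every direction in time given below therefore rests on the column order. With times and pigs as the titles give them, limma called 0 of the 64 genes in each of the 5 comparisons of times, with 0 at an unadjusted p under 0.05.

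A ribosome translates mRNA with a small subunit that reads the message and a large subunit that joins amino acids, and most of its proteins are needed in equal number. Transcripts for these proteins are among the most abundant in a cell. They share a pyrimidine-rich start, the TOP motif, through which the mTOR pathway controls their translation, and the transcription factor MYC raises their production in growing cells. Arrays of total RNA read transcript levels, not translation.

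The array medians ran from 69.5 to 73.9 intensity units, and the values below are log2 of the deposited intensities. Members differed between duplicate cultures by a median of 0.04 on the log2 scale, and by 0.49 at most, over 11 pairs. Of 7 macrophage markers measured, the summed intensity ran from 8483 to 9963 on the 0 h arrays and from 12015 to 13511 on the 24 h arrays; CD14, CD163, SPI1 and AIF1 were called higher at 24 h, MRC1 lower, and ITGAM stayed between 4.39 and 5.03 log2 on all arrays. Markers of other cells moved as well. The summed intensity of 3 granulocyte markers ran from 1073 to 3483 at 0 h and from 12689 to 14605 at 24 h, with S100A9 higher by 3.30 ± 0.26 (SE) and ELANE lower by -1.79 ± 0.15 on the log2 scale. That of 5 T and NK cell markers ran from 144 to 183 at 0 h and from 217 to 1546 at 24 h, mainly through CD2, while CD3E stayed between 4.21 and 4.99 log2. The sums of 3 erythroid markers were 309 to 397 at 0 h and 148 to 188 at 24 h. Of these 3, 1 was called lower and 1 higher at 24 h, with log2 differences from -1.71 to 0.25 and a median of 0.01. The sums of 4 stromal markers were 286 to 1288 and 289 to 613, with 2 called lower and 1 higher at 24 h. Those of 4 endothelial markers were 1273 to 1744 and 935 to 1524, with 1 called lower and a median difference of 0.04. CD79B, the B cell marker measured, stayed between 4.10 and 4.51 log2. The part of these cells in the results below was not tested, and in such bulk samples fewer cells of a type and less RNA per cell cannot be told apart.

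Ribosomal protein transcripts read slightly lower after LPS, most of them together. At 7 h, 63 of the 64 genes had a mean below that of 0 h, with a median log2 difference of -0.14. At 24 h, 57 were below 0 h, with a median of -0.16. At 2 h, 62 were below, with a median of -0.04; with arrays centred on their median these were 43 and -0.01. The medians over all 23999 probe sets were 0.01 at 7 h, 0.00 at 24 h and -0.01 at 2 h, and over all 6765 genes they were -0.06, -0.03 and -0.04.

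Most of these differences were not called by the fit, in which pig was a term. By limma with Benjamini-Hochberg adjustment over all probe sets, 20 of the 64 genes fell by 7 h and 0 rose, where 24.1 percent of all probe sets were called lower and 15.7 percent higher. At 24 h, 24 genes fell and 0 rose, beside 20.5 percent of all probe sets called lower and 14.1 percent higher. Counted with 1 probe set per gene, the share called lower was 34 percent of all genes at 7 h and 28.3 percent at 24 h, so that the members' shares of 31.2 percent and 37.5 percent lay near those of genes in general. The absence of a member called higher is a count and was not tested against other genes. Without pig 1, 2 or 3 the count at 7 h was 9, 6 or 4, and that at 24 h was 23, 4 or 7; a fit to the 0 h and 24 h samples alone called 8.

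**Figure D1:**
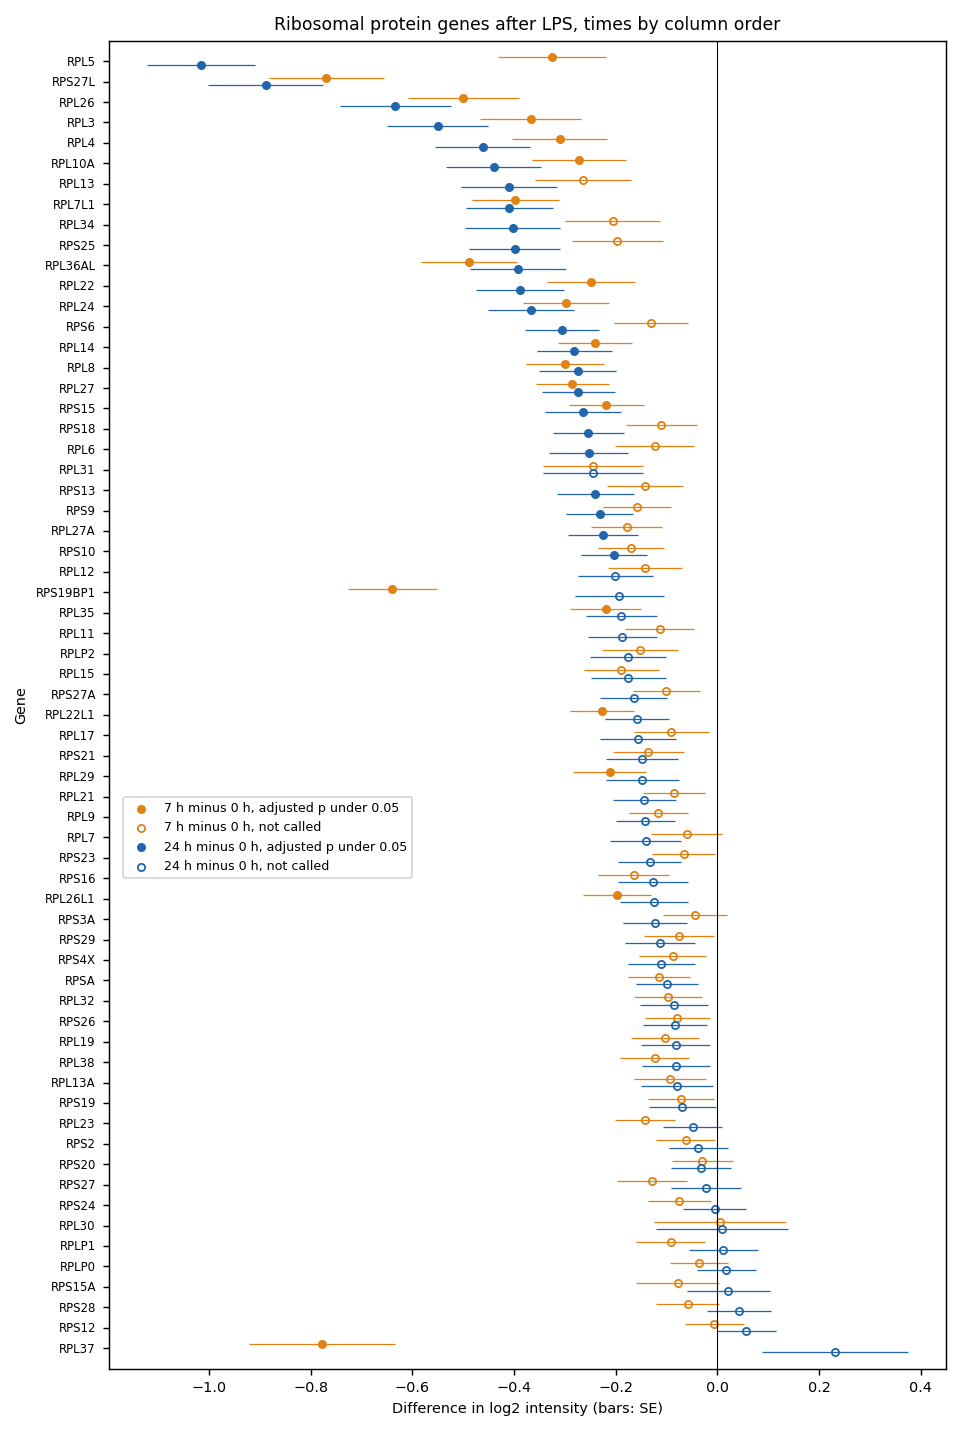
Difference in log2 intensity from 0 h for each of the 64 genes, at 7 h (orange) and 24 h (blue), with times by column order; bars are the SE of the limma fit over 3 pigs, and filled points have an adjusted p under 0.05. Nearly all points lie left of 0, RPL5 and RPS27L lie farthest left at 24 h (-1.02 and -0.89), and RPL37 lies at -0.78 at 7 h and 0.23 at 24 h.

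The direction was shared more widely than the calls. All arrays of 7 h lay below all arrays of 0 h for 41 of the 64 genes, against 18.5 percent of all probe sets, and for 28 genes at 24 h, against 15.3 percent. Probe sets with strong signals did this more often: among the 413 with a mean of 12 log2 or more that belong to other genes, the shares were 39.5 and 38.01 percent, beside 64.1 and 43.8 percent of the members. All 3 pigs had a lower mean at 7 h for 61 of the 64 genes, against 34 percent of all probe sets and 56.4 percent of those 413, and at 24 h for 43, against 30.3 and 50.8 percent. Counted over all 6765 genes, 45.1 percent were lower in all 3 pigs at 7 h and 37.3 percent at 24 h. These shares are a description, and their difference from those of the members was not tested. The lists of genes called at 7 h and 24 h shared 14 genes, which is 14 of the 20 at 7 h and 14 of the 24 at 24 h; both comparisons use the same 0 h arrays.

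Most members gave signals near the top of the array's range. Of the 64 genes, 56 had a mean log2 intensity of 12 or more and 11 a mean of 14 or more, where the highest value of any probe set on any array was 14.91. Among the 413 bright probe sets of other genes, the median difference was -0.13 at 7 h and -0.15 at 24 h, close to -0.13 and -0.16 for the 56 bright members. These other bright probe sets moved both ways, with 156 called lower and 90 higher at 7 h and 169 lower and 103 higher at 24 h. Of the 56 bright members, 14 fell and 0 rose at 7 h, and 21 fell and 0 rose at 24 h. Of the 473 bright probe sets in all, 36.6 percent were called lower at 7 h and 40.8 percent at 24 h.

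Among the bright members, the brighter the probe set, the smaller the difference. Across the 56 genes the correlation of mean level with the 7 h difference was r = 0.69, and with the 24 h difference r = 0.40; genes are not independent replicates, and all share the same arrays. Of the 11 genes with a mean of 14 or more, 0 were called at 7 h and 1, RPS18, at 24 h. Whether signals near the top of the range compressed the differences was not tested.

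**Figure D2:**
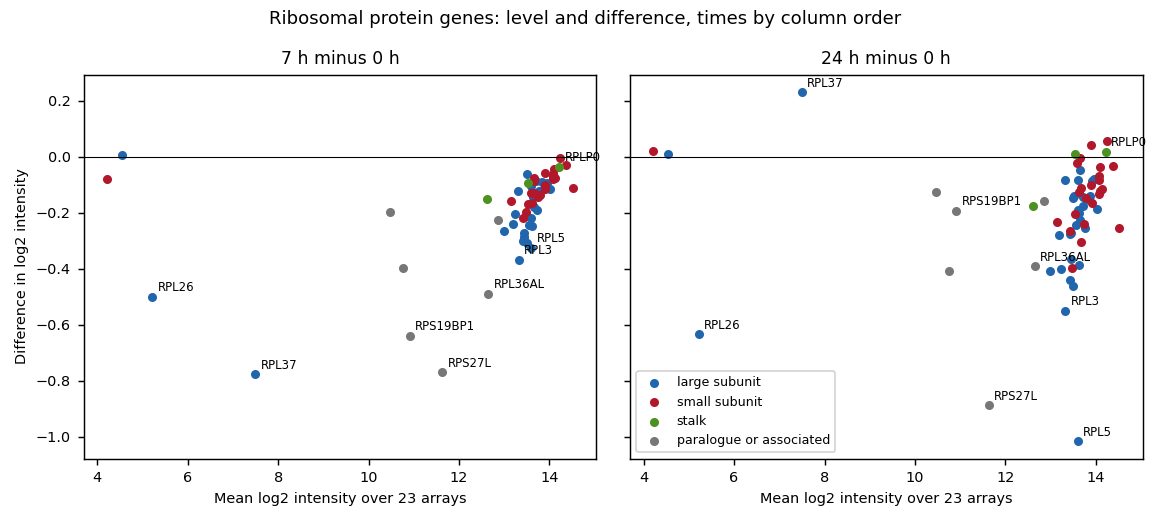
Mean log2 intensity over 23 arrays (x axis) against the difference in log2 intensity from 0 h (y axis), at 7 h (left) and 24 h (right), for the 64 genes coloured by role. The genes crowd between 13 and 14.5 log2, where differences shrink toward 0 at the bright end, and 4 genes with means under 8 log2 (RPL26, RPL30, RPL37 and RPS15A) stand apart on the left.

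The members tracked one another over the 12 pig-by-time means. The correlation of a gene with the mean of the other members had a median of 0.90, was above 0.5 for 53 of the 64, and reached 0.98 for RPL8, a protein near the peptidyl transferase centre. It was below 0 for 2 genes, RPS12 at -0.18 and RPL30 at -0.01, the latter with a dim probe set of mean 4.54 log2. These correlations are a description over means that share arrays, pigs and times. They were not computed for other genes, so whether they are particular to the members was not tested.

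The pigs were alike at 7 h and unlike at 24 h. At 7 h, 63 of 64 genes were lower in each pig, where between 49.3 and 50.5 percent of all probe sets were lower, and the median change was -0.12 in pig 1, -0.16 in pig 2 and -0.17 in pig 3. At 24 h the median change was -0.06 in pig 1, -0.29 in pig 2 and -0.18 in pig 3, with 43, 61 and 57 genes lower. Pig 2 had the lowest 24 h change of the 3 pigs for 59 of the 64 genes, while over all probe sets it had the lowest for 36.6 percent and over the 413 bright probe sets of other genes for 48.9 percent. Those 413 showed the same order of pigs at 24 h, with median changes of -0.08, -0.24 and -0.12 in pigs 1, 2 and 3. At 7 h the corresponding counts were 11 genes for pig 1, 20 for pig 2 and 33 for pig 3.

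**Figure D3:**
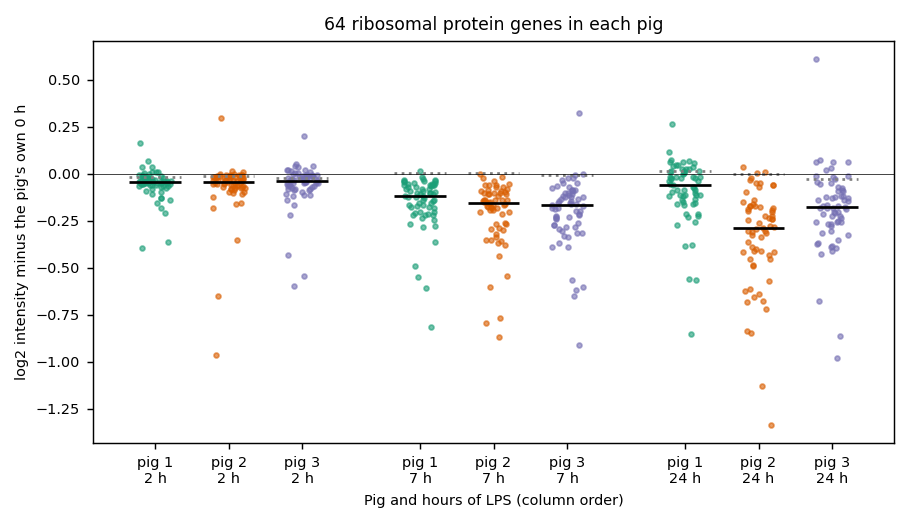
Change in log2 intensity of the 64 genes from the same pig's 0 h mean, by pig and hours of LPS under the column order; each point is a gene, the black line is the median of the genes and the grey dotted line the median of all probe sets. The black lines lie close together at 7 h (-0.12, -0.16 and -0.17) and spread at 24 h, where pig 2 is lowest at -0.29 and pig 1 highest at -0.06.

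An interaction fit on single arrays, in which duplicate cultures supply the error, called a pig-dependent time course for 10 of the 64 genes, beside 24 percent of all probe sets. They were RPL10A, RPL13, RPL22, RPL24, RPL3, RPL34, RPL36AL, RPL4, RPL5 and RPS27L. This test measures the pigs against the spread between cultures of one pig, not against other animals. Level differed between pigs for 1 gene, RPS19BP1 (adjusted p = 0.0191, limma), beside 9.73 percent of all probe sets; for RPL26L1 and RPS9, next in order, the adjusted p was 0.0568 and 0.139. Over all times together 22 of the 64 genes were called, beside 49.3 percent of all probe sets, with RPL5, RPS27L and RPL37 at the smallest p. Without pig 2 or pig 3 that count was 6 or 7.

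Of the 31 large subunit genes, 13 fell by 7 h and 14 by 24 h, with median log2 differences of -0.21 and -0.20. These are 41.9 and 45.2 percent, beside 34 and 28.3 percent of all genes called lower. RPL5 had the largest decrease. RPL5 joins RPL11 and a small ribosomal RNA in the complex that is built into the large subunit.

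The 6 arrays of 0 h gave RPL5 log2 intensities of 13.87 and 13.90 for pig 1, 13.89 and 13.90 for pig 2, and 14.02 in 1 culture of pig 3, with the other just below it. At 7 h they were 13.68 and 13.67, 13.55 and 13.49, and 13.63 and 13.61. At 24 h they were 13.003 and 13.07 for pig 1, 12.54 and 12.58 for pig 2, and 13.15 for the single culture of pig 3. No array of 24 h reached the lowest of 7 h, and no array of 7 h the lowest of 0 h. RPL5 fell by 24 h to 49.4 percent of its 0 h intensity, a log2 difference of -1.02 ± 0.11 (SE, n = 3 pigs; adjusted p = 0.000103, limma), and by -0.69 ± 0.11 between 7 h and 24 h (adjusted p = 0.00151). At 2 h the arrays ran from 13.81 to 13.97 and overlapped those of 0 h. The call at 7 h (-0.33 ± 0.11, adjusted p = 0.0351) was lost without any 1 pig, with adjusted p between 0.0647 and 0.168.

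RPL11, the partner of RPL5 in that complex, moved little. Its arrays ran from 14.06 to 14.17 at 0 h, from 13.93 to 14.04 at 7 h and from 13.76 to 14.002 at 24 h, so that those of 24 h lay below those of 0 h. The 24 h difference was -0.19 ± 0.07 and was not called (adjusted p = 0.0622, limma). The difference between the changes of the 2 genes was not tested.

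RPL3 and RPL4 bind the large ribosomal RNA early in assembly, and RPL4 also lines the tunnel through which the new protein leaves. RPL3 ran from 13.50 to 13.64 at 0 h and from 13.12 to 13.27 at 7 h. At 24 h its arrays were 13.09 and 13.20 in pig 1, 12.77 and 12.65 in pig 2, and 13.17 in pig 3. RPL3 fell by 24 h to 68.3 percent of its 0 h intensity (-0.55 ± 0.10, adjusted p = 0.00205, limma) and was also lower at 7 h than at 2 h (-0.31 ± 0.10, adjusted p = 0.0411). RPL4 fell by 7 h (-0.31 ± 0.09) and by 24 h (-0.46 ± 0.09), with pig 2 at -0.72 and pig 1 at -0.26. In both genes the 24 h arrays of pig 2 were the lowest of all.

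RPL22, which binds RNA and is dispensable for translation in many cells, ran from 13.73 to 13.84 at 0 h, from 13.49 to 13.61 at 7 h and from 13.16 to 13.54 at 24 h. It fell by 7 h (-0.25 ± 0.09, adjusted p = 0.0456, limma) and by 24 h (-0.39 ± 0.09, adjusted p = 0.00669). RPL34, a small protein of the large subunit, was called at 24 h (-0.40 ± 0.09) and not at 7 h (-0.21 ± 0.09, adjusted p = 0.109). RPL12, which lies at the base of the stalk, ran from 13.66 to 13.75 at 0 h and from 13.36 to 13.66 at 24 h, and its difference of -0.20 ± 0.07 was not called (adjusted p = 0.0607). The other large subunit genes called at both times were RPL10A, RPL14, RPL24, RPL26, RPL27 and RPL8. RPL29, RPL35 and RPL37 were called at 7 h alone, and RPL13, RPL27A and RPL6, like RPL34, at 24 h alone.

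RPL26 and RPL37 stood apart by signal. The probe set of RPL26, whose protein sits by the exit of the tunnel, had a mean of 5.22 log2 and fell by 7 h (-0.50 ± 0.11) and 24 h (-0.63 ± 0.11, adjusted p = 0.00161, limma). RPL37, a small zinc-binding protein, had a mean of 7.50 and was lower at the early times alone. Its arrays ran from 7.58 to 8.04 at 0 h, from 6.96 to 7.58 at 2 h, from 7.02 to 7.10 at 7 h and from 7.57 to 8.36 at 24 h. It fell by 2 h (-0.65 ± 0.14, adjusted p = 0.0169) and 7 h (-0.78 ± 0.14, adjusted p = 0.00205) and was higher at 24 h than at 7 h by 1.01 ± 0.14 (adjusted p = 0.00101). Its 24 h difference from 0 h was 0.23 ± 0.14 and was not called. Which transcripts these dim probe sets measure cannot be read from the files.

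Of the 24 small subunit genes, 1 fell by 7 h and 7 by 24 h, with median log2 differences of -0.09 and -0.12. These are 4.17 and 29.2 percent, beside 34 and 28.3 percent of all genes called lower. RPS15, a protein of the small subunit head, was the gene called at 7 h, and it was also called at 24 h (-0.26 ± 0.07, adjusted p = 0.0207, limma). The others called at 24 h were RPS10, RPS13, RPS18, RPS25, RPS6 and RPS9. The difference between the large and the small subunit genes was not tested.

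RPS6, the substrate of the S6 kinases downstream of mTOR, ran from 13.74 to 13.83 at 0 h, from 13.61 to 13.69 at 7 h and from 13.29 to 13.61 at 24 h. It fell by 24 h to 80.9 percent of the 0 h intensity (-0.31 ± 0.07, adjusted p = 0.00935, limma). RPS25, which some viral and cellular mRNAs need for initiation without a cap, had 24 h arrays of 13.55 and 13.37 in pig 1, 12.87 and 12.97 in pig 2, and 13.33 in pig 3, beside 13.52 to 13.73 at 0 h. Its decrease of -0.40 ± 0.09 was called (adjusted p = 0.00682) although 1 culture of pig 1 lay within the 0 h range. RPS9, which lies by the entry of the mRNA channel, fell by 24 h to 85.1 percent (-0.23 ± 0.07, adjusted p = 0.0229).

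Other small subunit genes gave no call by the probe set that stood for them. RPS27, a zinc-finger protein, ran from 13.58 to 13.76 at 0 h, from 13.44 to 13.57 at 7 h and from 13.42 to 13.76 at 24 h. Its differences were -0.13 ± 0.07 and -0.02 ± 0.07. A dimmer RPS27 probe set, of mean 8.66 log2, was called lower at 7 h than at 0 h (-0.42, adjusted p = 0.00135, limma). That probe set was higher at 24 h than at 7 h (0.57, adjusted p = 0.000532) and was not called at 24 h against 0 h (0.15, adjusted p = 0.135). RPS4X, encoded on the X chromosome, differed by -0.11 ± 0.07 at 24 h, and RPSA, also known as the laminin receptor, by -0.10 ± 0.06. RPS2 and RPS20 were among the 3 members with the narrowest range over all 23 arrays, 0.16 log2 each. RPS2, a neighbour of RPS9 at that entry, ran from 13.99 to 14.16, and RPS20, a protein of the small subunit head, from 14.28 to 14.44.

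The stalk proteins RPLP0, RPLP1 and RPLP2 stand out from the large subunit and recruit the translation factors. By the probe set that stood for it, none of the 3 genes was called by limma at any time. RPLP2 at 24 h alone had an unadjusted p under 0.05 there. A dimmer RPLP1 probe set, of mean 7.23 log2, was called lower at 7 h (-0.58, adjusted p = 0.00151, limma) and at 24 h (-0.35, adjusted p = 0.0231). RPLP0, the base of the stalk, is a common reference gene and had the narrowest range of all 64 genes, 0.14 log2. Its arrays ran from 14.18 to 14.26 at 0 h, from 14.20 to 14.24 at 2 h, from 14.16 to 14.25 at 7 h and from 14.20 to 14.30 at 24 h, and they overlapped at every time. The 24 h difference was 0.02 ± 0.06 for RPLP0, 0.01 ± 0.07 for RPLP1 and -0.18 ± 0.08 for RPLP2 (adjusted p = 0.850, 0.921 and 0.105, limma).

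The paralogues and the RPS19 partner gave the largest share of calls among the groups of members. All 6 fell by 7 h, with a median of -0.44, and 3 fell by 24 h, with a median of -0.29. Of all genes, 34 and 28.3 percent were called lower at these times. RPS27L is a paralogue of RPS27. Its arrays ran from 11.96 to 12.11 at 0 h, from 11.83 to 12.01 at 2 h, from 11.18 to 11.40 at 7 h and from 10.93 to 11.49 at 24 h. The 7 h and 24 h arrays all lay below those of 0 h and 2 h. It fell by 7 h to 58.6 percent (-0.77 ± 0.11, adjusted p = 0.000560, limma) and by 24 h to 54.0 percent (-0.89 ± 0.11, adjusted p = 0.000286), and by -0.62 ± 0.11 between 2 h and 7 h (adjusted p = 0.00316).

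RPL36AL encodes a protein nearly identical to RPL36A, so that its probe set may be uncertain between them. It ran from 12.73 to 13.08 at 0 h, from 12.27 to 12.45 at 7 h and from 12.18 to 12.69 at 24 h. It fell by 7 h (-0.49 ± 0.09, adjusted p = 0.00254, limma) and 24 h (-0.39 ± 0.09). RPL7L1, a relative of RPL7 that acts in ribosome assembly, fell by -0.40 ± 0.09 and -0.41 ± 0.09, and both genes were also lower at 7 h than at 2 h. RPL22L1, the paralogue of RPL22, fell by 7 h (-0.23 ± 0.06, adjusted p = 0.0172) and was not called at 24 h (-0.16 ± 0.06, adjusted p = 0.0834). RPL26L1, the paralogue of RPL26, fell by 7 h (-0.20 ± 0.07, adjusted p = 0.0408), with arrays that overlapped those of 0 h.

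RPS19BP1, which binds RPS19 and the deacetylase SIRT1, was lower at 2 h and 7 h and higher again at 24 h, the same calls as RPL37. Its 0 h arrays were 11.34 and 11.31 in pig 1, 11.44 and 11.32 in pig 2, and 11.11 and 10.95 in pig 3. At 2 h they were 11.04 and 10.87, 10.71 and 10.76, and 10.56 and 10.42. At 7 h they ran from 10.39 to 10.77 and at 24 h from 10.80 to 11.46. It was lower by -0.52 ± 0.09 at 2 h (adjusted p = 0.00465, limma) and -0.64 ± 0.09 at 7 h (adjusted p = 0.000377), and it rose by 0.45 ± 0.09 from 7 h to 24 h (adjusted p = 0.00508). Pig 3 lay lowest at each time, and the 24 h difference from 0 h was -0.19 ± 0.09 and was not called.

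**Figure D4:**
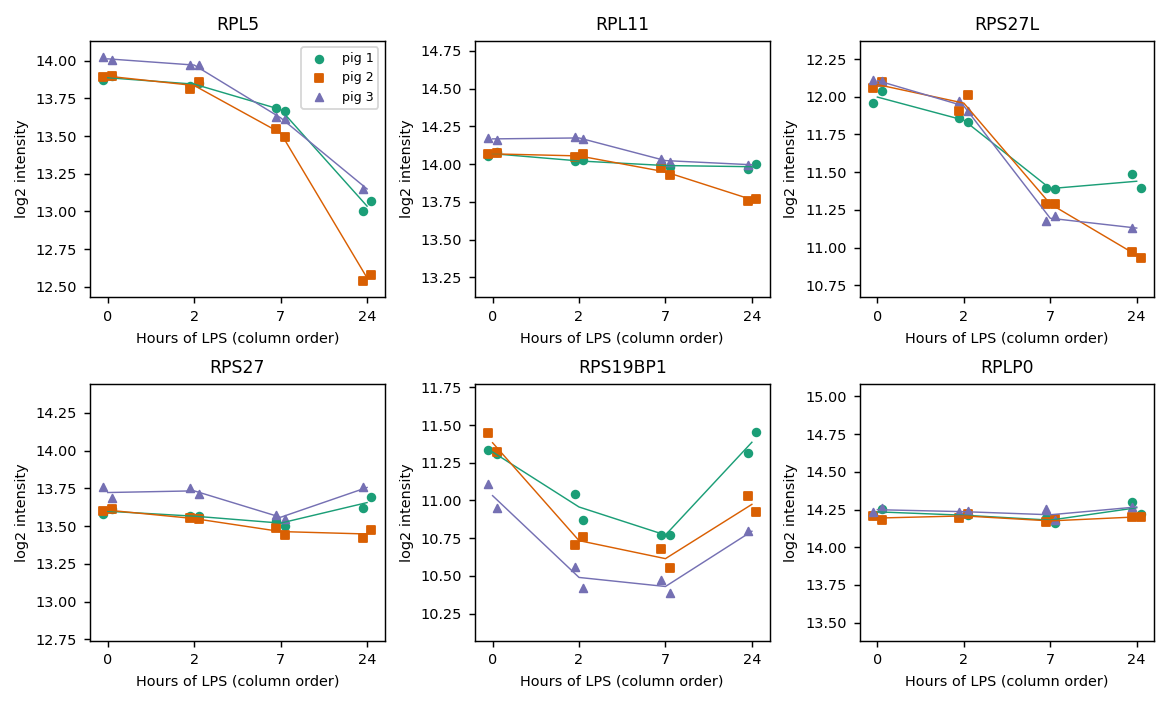
Log2 intensity on each of the 23 arrays for RPL5, RPL11, RPS27L, RPS27, RPS19BP1 and RPLP0 against hours of LPS by column order; colours and shapes are pigs, lines join the pig means, and every y axis covers the same span. RPL5 drops mostly between 7 h and 24 h, RPS27L between 2 h and 7 h, RPS19BP1 dips at 2 h and 7 h, and RPLP0 stays between 14.16 and 14.30.

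At 2 h, RPL37 and RPS19BP1 were the 2 members called of 64, both lower, beside 7.88 percent of all probe sets called lower and 12.3 percent called in either direction. Between 2 h and 7 h, 4 members fell, RPS27L, RPL36AL, RPL3 and RPL7L1, beside 15.6 percent of all probe sets called lower; before adjustment 15 had a p under 0.05. From 7 h to 24 h, RPL5 fell and RPL37 and RPS19BP1 rose, beside 11.7 percent of all probe sets called lower and 13.4 percent higher. In that step 36 of the 64 genes had a mean below the earlier one and the median was -0.02. Without pig 2 or pig 3, 0 members were called at 2 h; between 2 h and 7 h, 2, 1 or 0 were called without pig 1, 2 or 3.

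Some genes had further probe sets that read otherwise. The 64 genes had 96 probe sets, and 24 genes had more than 1. The 32 probe sets that did not stand for a gene had a median difference of 0.01 at 7 h and -0.10 at 24 h. Of these 32, 17 had a mean under 8 log2. At 7 h 8 of the 32 were called, 7 of them lower, and at 24 h 9 were called, all lower. The count of 63 of 64 genes lower at 7 h thus holds for the standing probe sets alone. A second RPS25 probe set, with a mean of 6.25 log2, was lower at 24 h by -1.59, against -0.40 for the bright one. A second probe set of RPS27A, whose product is ubiquitin fused to a small subunit protein, had a mean of 8.24 and was lower at 24 h by -1.32 (adjusted p = 0.00546, limma), against -0.16 for the bright one (adjusted p = 0.0850). For RPL9, a second probe set of mean 7.16 gave -0.76 against -0.14; for RPL34, one of mean 4.83 gave 0.11 against -0.40; for RPL23, one of mean 10.28 gave -0.46 against -0.05. These dimmer probe sets were those whose 24 h difference lay farthest from that of the standing probe set. Which transcripts they measure cannot be read from the files.

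Where a gene had several bright probe sets, they moved alike in direction. The 3 bright ones of RPS18, a small subunit head protein, gave -0.25, -0.45 and -0.55 at 24 h, the smallest from the brightest. Those of RPL27 gave -0.27 and -0.22, and those of RPL31 gave -0.24 and -0.32. For RPL31 the second was called (adjusted p = 0.0314, limma) and the standing one was not (adjusted p = 0.0862).

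Duplicate cultures of a pig gave no call for the standing probe sets: by limma, 0 of the 64 were called for the difference between the second and the first array of a pair (the even and the odd column), beside 0.321 percent of all probe sets, and 2 had an unadjusted p under 0.05 (RPLP2 and RPL7L1). The differences ran from -0.12 for the lowest member to 0.12 for RPL37. Their partner probe sets behaved otherwise. For 8 genes (RPL12, RPL13A, RPL17, RPL23, RPL24, RPL32, RPL6 and RPS6) the array also carries a dimmer probe set whose name differs from the standing one in the orientation letter, A or S. All 8 of these were called higher on the second array of a pair, on 11 of 11 pairs each. The difference was 0.80 ± 0.05 for the RPL12 partner (adjusted p = 2.7e-06, limma), whose mean was 8.30 against 13.64 for the standing probe set of RPL12, which differed by 0.00. The smallest was 0.38 ± 0.05, for the RPL6 partner. Of the 24 other non-standing probe sets, 1 was called, for RPS28. Of the 77 probe sets called in this comparison over the whole array, 76 were higher on the second array. This group of partners was chosen after its values were seen, and 1 of the 8, that of RPL23, was called for time, being 0.41 higher at 7 h than at 0 h (adjusted p = 0.0394).

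The genes that build and govern ribosomes were read from fixed lists. Of all genes, 34 percent were called lower and 17.5 percent higher at 7 h, and 28.3 and 18.4 percent at 24 h. Of 51 ribosome biogenesis genes measured, 38 fell and 3 rose by 7 h, and 27 fell and 3 rose by 24 h, with median differences of -0.54 and -0.37. NHP2, a protein of the particles that modify ribosomal RNA, was lower by -1.86 ± 0.16 at 24 h (adjusted p = 4.1e-05, limma), RPF2, which brings RPL5 and RPL11 to the growing large subunit, by -1.39 ± 0.20, and the methyltransferase FBL by -1.20 ± 0.11. UTP14A, of the small subunit processing complex, rose by 1.22 ± 0.11, and BYSL and LSG1, which act in the maturation of the small and the large subunit, by 0.58 ± 0.12 and 0.33 ± 0.09.

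Of 58 genes for proteins of the mitochondrial ribosome, 40 fell by 7 h and 40 by 24 h, with 3 and 2 higher and medians of -0.41 and -0.44. MRPS28 was lower by -1.09 ± 0.10 at 24 h, and MRPL1 higher by 0.88 ± 0.09. Of 16 other genes whose mRNAs carry a TOP motif, 9 fell and 1 rose at each of the same times, with medians of -0.24 and -0.25. The RNA-binding protein gene HNRNPA1 was lower by -1.14 ± 0.11 at 24 h, the histone chaperone gene NAP1L1 by -0.79 ± 0.14 and the elongation factor gene EEF1D by -0.60 ± 0.08, and PABPC1, the poly(A)-binding protein gene, was higher by 0.39 ± 0.08. The differences between these lists and the members were not tested.

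Of 12 genes listed as regulators of ribosomal protein synthesis, 8 fell by 7 h, and 5 fell and 2 rose by 24 h. MYC was lower by -2.52 ± 0.29 at 2 h (adjusted p = 0.00069, limma), -2.35 ± 0.29 at 7 h and -1.65 ± 0.29 at 24 h, and NAA10, an acetyltransferase gene, by -1.54 ± 0.11 at 7 h. LARP4, which protects mRNA tails, rose by 0.33 ± 0.08 at 24 h, and the kinase gene RPS6KA3 by 0.46 ± 0.12. The ribosomal proteins that the naming rule misses behaved like the members by value: FAU, a small subunit protein made as a fusion, differed by -0.15 ± 0.08 at 7 h and -0.19 ± 0.08 at 24 h, and RACK1, the scaffold on the small subunit, by -0.15 ± 0.06 and -0.14 ± 0.06. Neither was called.

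**Figure D5:**
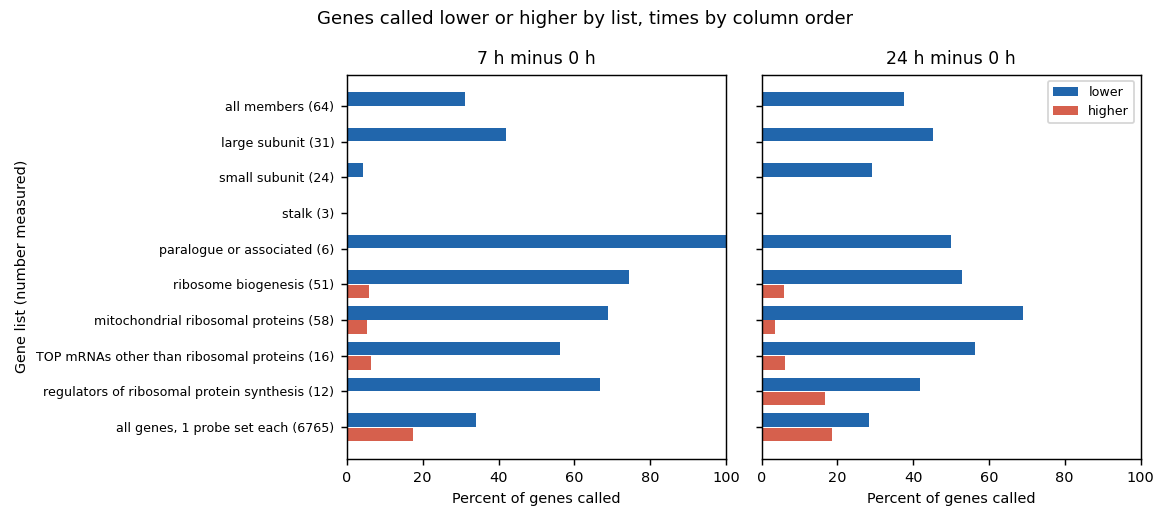
Percent of measured genes called lower (blue) and higher (red) than at 0 h by limma, at 7 h (left) and 24 h (right) under the column order, for the ribosomal protein genes by role, the related lists and all genes with 1 probe set each; the number measured is in parentheses. Among lists of over 6 genes, the longest blue bar belongs to ribosome biogenesis at 7 h and to the mitochondrial ribosomal proteins at 24 h, and the ribosomal protein genes have no red bar.

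With the samples grouped by their titles, the median difference of the 64 genes was 0.02 at 7 h and 0.03 at 24 h, and 0 were called. RPL5 differed by -0.03 at 24 h (adjusted p = 0.926, limma) and RPS27L by 0.07 (adjusted p = 0.921). Some genes differed by more, such as RPL37, whose values are given in the last section below. Over the whole array that grouping called 0.0125 percent of probe sets at 2 h, 0 at 7 h and 0.00417 percent at 24 h.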

How the data were processed

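The authors deposited 1 intensity per probe set and array on a linear scale. Per the submitters' processing notes, the tools were RMA and affy, without versions in the sources used here. RMA as usually run scales arrays to one another, so a difference is relative to the rest of the array. From these, log2 values were taken without further normalization. The tests left out 124 array controls among the 24123 probe sets. The platform annotation named 1 gene for 10069 probe sets and several for 198, and listed none for 13732; 2 genes to be described, RPL39 and RPL10, had no probe set of their own and are not analysed here. No coordinates or sequences are given, because no genome was used.

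Duplicate cultures were averaged to 12 pig-by-time means and fitted with limma 3.58.1 (R 4.3.3) by time and pig, with 6 residual degrees of freedom and p-values adjusted over all probe sets at a threshold of 0.05. Pig was a term because the same pigs supplied every time; deviations from the time means correlated within a pig at 0.34 to 0.73. The interaction was fitted on single arrays with 11 residual degrees of freedom. For arrays, their number limits the precision. Scripts were tested on simulated data. The members and lists were chosen with earlier results of these data known. Named members were a fixed set, the largest called changes of each comparison, the smallest p-values for time, pig, culture and interaction, the widest and narrowest ranges, and the genes whose probe sets disagreed most; from each other list, up to 3 called genes per direction. The fit was repeated without the pig block, with arrays unaveraged, with 1 array per pair, without each pig, with 2 time points, with other probe set filters and scalings, and with the labelled samples.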

Additional observations from a re-analysis of the deposited data

Results flagged for a closer look

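A single array stood apart from the other cultures of its time in 4 of 116 combinations of named gene and time with 5 or 6 arrays. A rate of 1 in 20 would give 5.8. That rate assumes independent arrays, which duplicate cultures of a pig are not, so the number expected by chance is not known. RPLP0 at 7 h was 14.25 log2 in a culture of pig 3, where the others ran from 14.16 to 14.20. RPL22L1 at 2 h was 13.03 in a culture of pig 2, where the others ran from 12.81 to 12.89. RPL7L1 at 0 h was 10.86 in a culture of pig 3, with the others between 10.98 and 11.04, and RPL4 at 0 h was 13.78 in another culture of pig 3, with the others between 13.66 and 13.69.

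The time course differed between pigs, beyond the spread of duplicate cultures, for 7 of the named genes (limma F test on single arrays, adjusted over all probe sets). The adjusted p was 0.00206 for RPS27L, 0.00316 for RPL5, 0.0172 for RPL4, 0.0188 for RPL34, 0.0213 for RPL3, 0.0301 for RPL22 and 0.0471 for RPL36AL. The 24 h difference from 0 h ranged over the pigs from -1.13 to -0.56 for RPS27L, from -1.34 to -0.85 for RPL5, from -0.72 to -0.26 for RPL4, from -0.66 to -0.16 for RPL34, from -0.85 to -0.38 for RPL3, from -0.61 to -0.23 for RPL22 and from -0.64 to -0.15 for RPL36AL.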

How the results depend on the processing

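The main counts of ribosomal protein genes called against 0 h were 2 at 2 h, 20 at 7 h and 24 at 24 h. The step from 2 h to 7 h gave 4, the step from 7 h to 24 h gave 3, and the test of any time gave 22. Over the settings that kept the column order, there were 918 repeats for named genes. Of these, 795 kept their side of the threshold, 90 lost it and 33 gained it. Among differences called in the main or the repeated fit, 0 changed sign. A sign change of a difference called in neither fit was counted among the 795. Leaving out 1 pig gave 0 to 2, 4 to 9, 4 to 23, 0 to 2, 2 to 3 and 6 to 16, in the order above. With no replicate block the counts were 1, 14, 20, 3, 2 and 20. With arrays unaveraged and the pig-by-time mean as a random block, 30 genes were called at 7 h and 33 at 24 h. The same setting called 16 in the step from 2 h to 7 h, 6 in that from 7 h to 24 h and 34 at any time. The first array of each pair alone called 11 at 7 h; the second alone called 9 at 7 h, 11 at 24 h, 2 from 2 h to 7 h and 11 at any time. A fit to the 2 time points alone called 8 at 24 h. Bright probe sets alone, which hold 56 of the genes, called 0 at 2 h, 24 at 7 h, 37 at 24 h and 11 from 2 h to 7 h, where the main fit called 0, 14, 21 and 2 of the same 56. Arrays centred on their median called 13 at 7 h and left 43 of the 64 genes below 0 at 2 h in place of 62, and the mean of all probe sets of a gene called 7 from 7 h to 24 h. Of 2 settings chosen after seeing the data, a prior spread that follows the level called 27 at 7 h, 33 at 24 h and 7 from 2 h to 7 h. The other, counting each probe set of the member genes, called 9 from 2 h to 7 h and 9 from 7 h to 24 h. Here and above, the counts under repeated settings stand without the share of all probe sets called in the same fit. A larger or smaller count is therefore not by itself a trait of the members.

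With times and pigs by the labels, 0 were called in each comparison and over all times. Of the 64 genes, 27 had the opposite sign at 2 h, 53 at 7 h, 51 at 24 h, 54 from 2 h to 7 h and 30 from 7 h to 24 h. Among called differences of named genes, 21 changed sign. At 7 h these were RPL3 to 0.0139, RPL22 to 0.0148, RPL22L1 to 0.0374, RPS27L to 0.0462, RPL37 to 0.277, RPS19BP1 to 0.0681, RPL36AL to 0.0505, RPL7L1 to 0.0108 and RPL4 to 0.0254. At 24 h they were RPL3 to 0.00403, RPS27L to 0.0658, RPL26 to 0.024, RPL36AL to 0.0756, RPL4 to 0.0283, RPS25 to 0.0555 and RPL34 to 0.0553, and at 2 h RPL37 to 0.112. In the step from 2 h to 7 h they were RPL3 to 0.0714, RPS27L to 0.0195, RPL36AL to 0.0714 and RPL7L1 to 0.0843. Except where a setting uses fewer arrays or probe sets by construction, the cause was not tested. Signal limits the readings of RPL26, RPL30, RPL37 and RPS15A, whose probe sets had means under 8 log2.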
